A study of Mus musculus with 16 samples.

Results

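5 mouse genes of epoxide and cytochrome P450 metabolism are described here across white fat depots: Ephx1, Ephx2, Cyp4b1, Cyp2e1 and Cyp1b1. They are 5 of the 14023 genes in the deposited table, found by gene symbol, and all 5 were at or above 1 FPKM (fragments scaled to transcript length and to the library's total fragments) in all 16 libraries. The mice carried wild-type PPARg (WT) or were homozygous for PPARg-K107R, in which arginine takes the place of the lysine to which the small protein SUMO is attached. PPARg is the nuclear receptor that drives fat cell formation and is bound by rosiglitazone. All mice, controls included, ate chow for 10 weeks and then a high-fat diet (60% of calories) for 19 weeks. They then received rosiglitazone at 10 mg/kg or the vehicle, 1% methylcellulose, by gavage for 1 week. Epididymal (eWAT) and inguinal (iWAT) white fat were sequenced, which gives 8 groups of depot, genotype and treatment with 2 libraries each, numbered 1 and 2 in the labels. The labels do not say if the 2 libraries of a group are separate mice or if the depots were taken from the same mice. The p-values rest on the spread between libraries, and that spread may be technical.

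Cytochrome P450 enzymes insert oxygen into lipids, hormones and foreign compounds with electrons from the reductase Por, and some of their products are reactive epoxides. Epoxide hydrolases add water to an epoxide and turn it into a diol. Ephx2 encodes the soluble epoxide hydrolase, which acts on the epoxides of arachidonic acid and other fatty acids, while Ephx1 encodes the microsomal enzyme, best known for epoxides of foreign compounds. Cyp4b1 belongs to the cytochrome family that hydroxylates fatty acids. Cyp2e1 oxidises ethanol, acetone and small solvents, and Cyp1b1 oxidises estrogens and polycyclic hydrocarbons and is a target of the aryl hydrocarbon receptor (Ahr).

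The genes were chosen by name with results of this table known, and the values that chose them are not stated. Ephx2 had been noted for its rosiglitazone response in eWAT, and Cyp4b1 for its rosiglitazone response in WT eWAT and its difference between genotypes in vehicle-treated eWAT. Values within eWAT were therefore assumed to have been used and are given as a description with no test. No basis is stated for Ephx1, Cyp2e1 and Cyp1b1, and iWAT values may also have played a part in the choice. The comparison between depots contains the eWAT values as well. Differences within iWAT and between depots were tested with limma on log2(FPKM + 1) with 1 mean per group over all 16 libraries. A gene is called at a Benjamini-Hochberg adjusted p under 0.05 over the 13669 genes tested. These p-values are no independent support, since the choice was made with the table in view.

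The libraries differed in ways that touch the genes described. Median FPKM was between 8.95 and 9.61 in the number 1 libraries and between 5.36 and 8.83 in the number 2 libraries, and the sum of FPKM lay between 411746 and 596519. Actb, the cytoskeletal actin gene, was at 771 to 2016 FPKM in the number 1 libraries. In number 2 it was at 21.7 to 39.5 FPKM in iWAT and at 96.9 to 261 in eWAT, except in eWAT K107R rosiglitazone, where it was at 938. The part of this difference between library numbers in the levels of the 5 genes was not tested. Without read counts in the table, sequencing depth is not known. Summed FPKM of 8 epididymis epithelium markers was 4056 and 3698 in the eWAT libraries of vehicle-treated K107R mice and at most 7.05 in every other library, so each eWAT comparison with that group sets libraries with epididymal RNA against libraries nearly without it. The 8 fat cell markers were all in the table and none was at 0, with sums between 5349 and 8703 FPKM in eWAT and between 8840 and 14996 in iWAT. The iWAT groups also differed in other tissue markers. B and T cell markers summed to 202 and 126 FPKM in WT with rosiglitazone and to 27.0 and 15.4 in K107R with rosiglitazone. With vehicle, skeletal muscle markers in K107R iWAT summed to 3.42 times the WT mean.

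Upstream sequence is shown for 2 of the genes, Cyp4b1, which differed with drug, genotype and depot, and Cyp1b1, whose call was by depot alone. The RefSeq promoter table (GRCm38.p6), with windows from 250 bases before to 50 bases after each start, holds 4 of the 5 genes, and the 250 bases before the start are printed 5′ to 3′ on the gene's own strand. Cyp4b1 lies on chromosome 4 at 115624725 to 115647723 (minus strand) and its printed stretch is chr4:115647722-115647971. Cyp1b1 lies on chromosome 17 at 79701537 to 79715061 (minus strand) and its printed stretch is chr17:79715062-79715311. Capitals mark the GCGTG core of the Ahr binding element, read here as CACGC from the other strand.
Cyp4b1: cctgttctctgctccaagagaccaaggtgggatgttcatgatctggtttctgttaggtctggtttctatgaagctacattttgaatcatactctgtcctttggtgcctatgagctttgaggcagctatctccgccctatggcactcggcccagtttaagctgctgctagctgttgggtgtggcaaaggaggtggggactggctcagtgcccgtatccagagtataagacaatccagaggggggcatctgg
Cyp1b1: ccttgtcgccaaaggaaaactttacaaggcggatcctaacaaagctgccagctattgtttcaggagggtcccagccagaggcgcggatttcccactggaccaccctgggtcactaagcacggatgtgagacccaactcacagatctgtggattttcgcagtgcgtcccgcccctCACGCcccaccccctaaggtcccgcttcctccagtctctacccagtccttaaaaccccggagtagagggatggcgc
4 motifs were searched on both strands in the windows of Ephx1, Cyp4b1, Cyp2e1 and Cyp1b1. The PPAR element, a direct repeat of AGGTCA with a single base between, occurs in 0.0396% of all 32851 windows, and its half-site AGGTCA, which the element contains, in 16.3%. GCGTG occurs in 32.4% and the antioxidant element core TGACNNNGC in 12.4%. The marked match, which starts 76 bases before the start of Cyp1b1, is the only match of any of these motifs in the 4 windows. A motif in 32.4% of windows is common, and the letters describe these windows only.

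Ephx2 (chromosome 14, 66084374 to 66124500, minus strand) had the widest range of the 5 genes, from 74.9 to 1270.5 FPKM, a 17.0-fold span. In iWAT of vehicle-treated WT mice the libraries were at 127 and 85.9 FPKM (number 1, then number 2, here and below). Rosiglitazone in WT mice gave 569 and 428 FPKM in iWAT. Vehicle-treated K107R iWAT was at 267 and 175 FPKM. With rosiglitazone, K107R iWAT reached 1270.5 and 766 FPKM, the highest value of the gene in each library number. None of these iWAT groups overlapped another, and the number 1 library was the higher in each.

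Ephx2 rose with rosiglitazone in iWAT of both genotypes, 4.68-fold in WT means and 4.61-fold in K107R means. On the log2(FPKM + 1) scale the change was 2.23 ± 0.31 (SE, adjusted p = 0.0083) in WT and 2.18 ± 0.31 (adjusted p = 0.0034) in K107R. The difference between these responses was -0.04 ± 0.44 (adjusted p = 1), so the spread leaves room for a difference in either direction. Averaged over genotypes the change of 2.21 ± 0.22 (adjusted p = 0.0003) was the 28th largest in size among the 13669 genes. In WT the call was lost without iWAT WT vehicle library 2 (1.95, adjusted p = 0.0812) or without iWAT WT rosiglitazone library 1 (2.02, adjusted p = 0.0826), and in both genotypes when the iWAT libraries were fitted alone (adjusted p = 0.289 in WT and 0.111 in K107R).

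Mean Ephx2 in K107R iWAT was 2.07 times that in WT with vehicle and 2.04 times with rosiglitazone, with no overlap of libraries. The differences were 1.04 ± 0.31 and 1.00 ± 0.31 on the log2 scale and were not called (adjusted p = 0.398 and 0.163). Within library number 1 the difference was 1.06 with vehicle and 1.16 with rosiglitazone, and within number 2 it was 1.02 and 0.84. With the library number as a block both were called (adjusted p = 0.0146 and 0.0040). They were also called after each library was rescaled by its median ratio to the others (adjusted p = 0.0017 and 0.0004).

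In eWAT the levels of Ephx2 followed the same order of groups. They were 86.9 and 74.9 FPKM in WT with vehicle, 163 and 109.8 in K107R with vehicle, 252 and 219 in WT with rosiglitazone, and 638 and 658 in K107R with rosiglitazone. No 2 of these groups overlapped. Means differed 2.91-fold with the drug in WT and 4.74-fold in K107R, and K107R over WT was 1.69-fold with vehicle and 2.75-fold with rosiglitazone. K107R mice with rosiglitazone held 8.01 times the WT vehicle mean in eWAT and 9.56 times in iWAT. From lowest to highest, the neighbours that overlapped were eWAT and iWAT of vehicle-treated WT mice, the latter and eWAT of vehicle-treated K107R mice, and iWAT of vehicle-treated K107R mice and eWAT of WT mice with rosiglitazone.

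**Figure D1:**
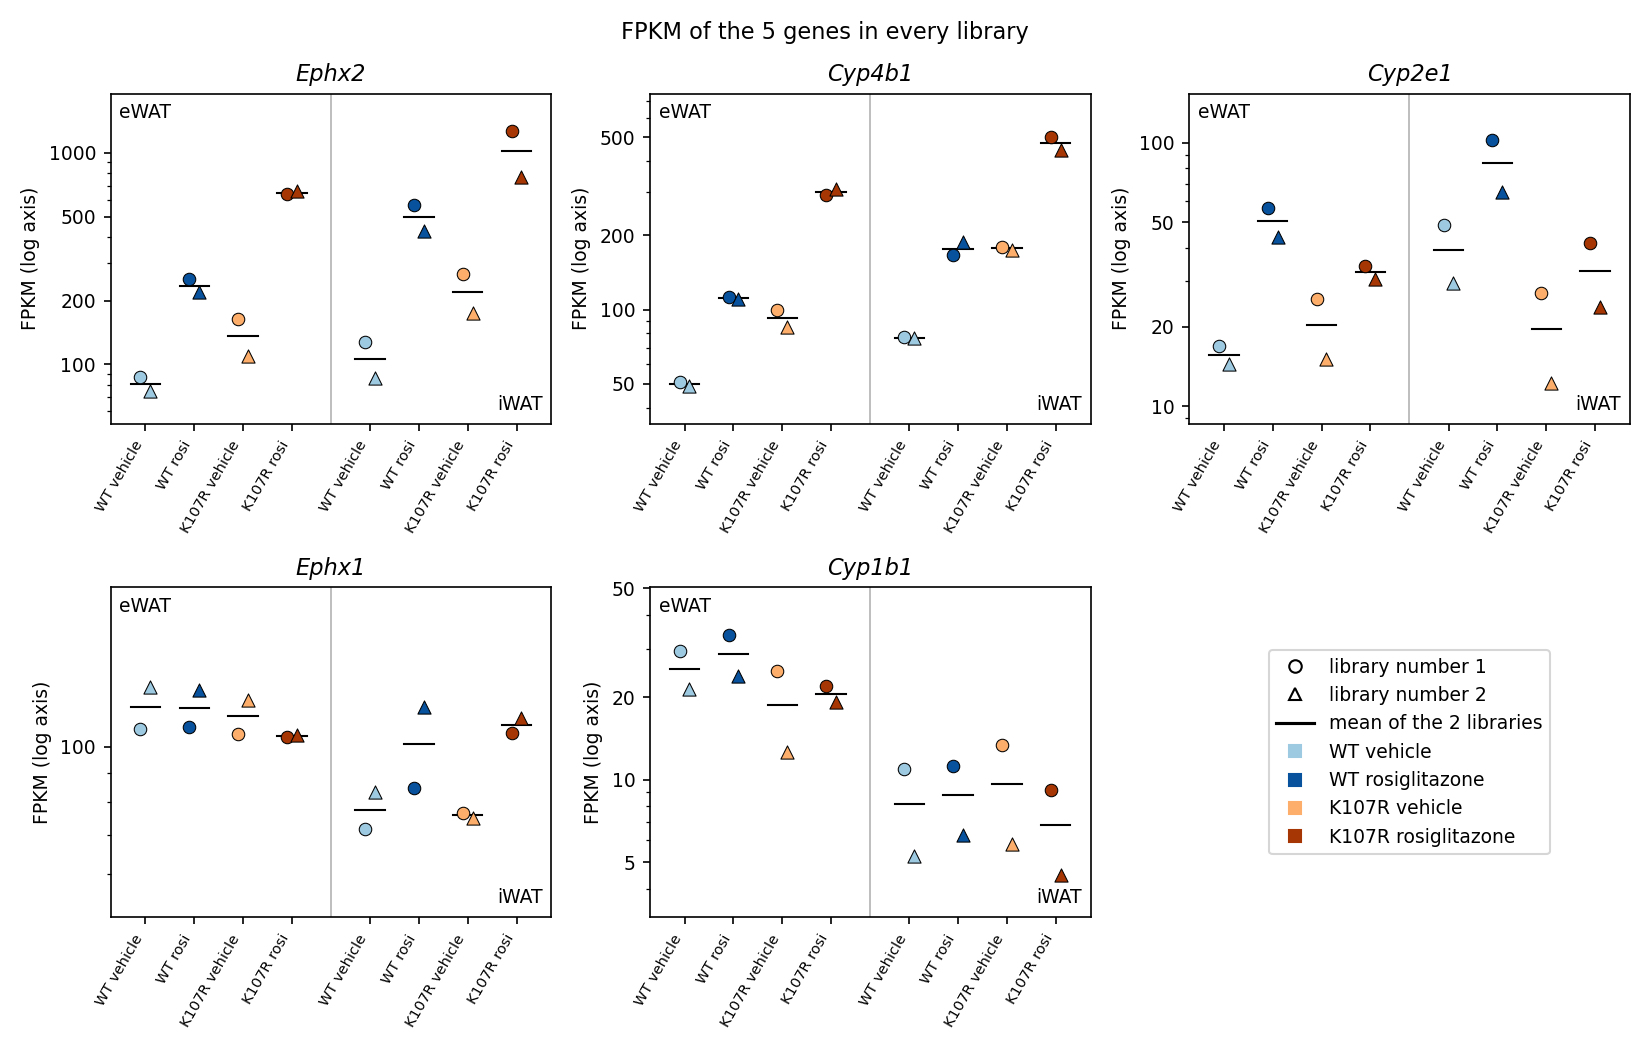
FPKM (vertical log axis) of each of the 5 genes in every library by depot, genotype and treatment. Circles are number 1 libraries, triangles number 2 libraries and bars the mean of 2. Ephx2 and Cyp4b1 are lowest in WT vehicle and highest in K107R rosiglitazone in both depots, Cyp2e1 is highest in WT rosiglitazone in each depot, and Cyp1b1 sits higher in eWAT.

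Ephx1 (chromosome 1, 180976210 to 181020904, minus strand) varied least, from 71.8 to 127 FPKM, a 1.77-fold span. It overlaps the pseudogene Gm36961 on the same strand, with which it could share reads. In iWAT it was at 71.8 and 83.3 FPKM in vehicle-treated WT libraries and at 76.5 and 75.2 in vehicle-treated K107R libraries, which overlap. With rosiglitazone it was at 84.7 and 117 FPKM in WT and at 106 and 112 in K107R. All 4 rosiglitazone libraries of iWAT were above all 4 vehicle libraries. The drug change averaged over genotypes was 0.44 ± 0.12 on the log2 scale and missed the threshold (adjusted p = 0.0694). It was called with the library number as a block (adjusted p = 0.0051) and without iWAT WT rosiglitazone library 1 (0.56, adjusted p = 0.0279). In K107R alone the change of 0.52 ± 0.17 was not called (adjusted p = 0.165) and was called with the block (adjusted p = 0.0164). In WT alone the change was 0.36 ± 0.17 (adjusted p = 0.623). In these libraries the second hydrolase thus stayed within 1.44-fold in each iWAT drug comparison of means, where Ephx2 differed over 4-fold.

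The eWAT values of Ephx1 lay close together, with no step up under the drug. They were 108 and 127 FPKM in WT with vehicle, 106 and 121 in K107R with vehicle, 108 and 126 in WT with rosiglitazone, and 104 and 105 in K107R with rosiglitazone. The K107R rosiglitazone libraries were both below every other eWAT library. Number 2 was the higher library in 7 of 8 groups for this gene, the reverse of Ephx2, where it was the lower in 7 of 8. By mean the order from lowest to highest was iWAT K107R vehicle (75.9), iWAT WT vehicle (77.6), iWAT WT rosiglitazone (101), eWAT K107R rosiglitazone (105), iWAT K107R rosiglitazone (109), eWAT K107R vehicle (113), eWAT WT rosiglitazone (117) and eWAT WT vehicle (117). Neighbours in this order overlapped except iWAT WT vehicle with iWAT WT rosiglitazone and eWAT K107R rosiglitazone with iWAT K107R rosiglitazone. The genes most like Ephx1 over the libraries were Psmb4 (r = 0.933), a proteasome subunit, Srp14 (0.905), of the signal recognition particle, and Htra2 (0.887), a mitochondrial protease.

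Cyp4b1 gave the most even pairs of libraries, with number 2 at between 0.854 and 1.13 times number 1. In iWAT it was at 77.6 and 76.3 FPKM in WT with vehicle and at 166 and 188 in WT with rosiglitazone. K107R iWAT was at 179.7 and 175 FPKM with vehicle and at 502 and 443 with rosiglitazone. K107R libraries given only vehicle therefore lay within the range of WT libraries given rosiglitazone, with means of 177 ± 3.46 and 177 ± 15.4 FPKM (SD, n = 2). For Ephx2 the same 2 groups were apart, and the K107R vehicle mean was 0.443 of the WT rosiglitazone mean. The difference between the genes in this ratio was not tested.

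Cyp4b1 rose with rosiglitazone and was higher in K107R in iWAT. The drug change was 1.19 ± 0.12 in WT (adjusted p = 0.0013) and 1.41 ± 0.12 in K107R (adjusted p = 0.0002), or 2.30-fold and 2.67-fold in means. K107R exceeded WT by 1.19 ± 0.12 with vehicle (adjusted p = 0.0011) and by 1.41 ± 0.12 with rosiglitazone (adjusted p = 0.0001), or 2.30-fold and 2.67-fold. The 2 drug responses differed by 0.22 ± 0.17 (adjusted p = 1), which was not called. With each library rescaled by its median ratio, the drug change in WT (1.16, adjusted p = 0.0909) and the vehicle genotype difference (1.27, adjusted p = 0.109) missed the threshold, as they did with iWAT libraries fitted alone (adjusted p = 0.193 and 0.126).

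The eWAT values of Cyp4b1 showed the same direction in both comparisons, as a description. They were 51.0 and 49.1 FPKM in WT with vehicle, 99.2 and 84.8 in K107R with vehicle, 113 and 110.5 in WT with rosiglitazone, and 292 and 308 in K107R with rosiglitazone. No 2 of these groups overlapped. Mean levels were 2.23-fold higher with the drug in WT and 3.26-fold in K107R, and 1.84-fold and 2.69-fold higher in K107R than in WT with vehicle and with rosiglitazone. K107R with rosiglitazone was 5.99 times WT with vehicle in eWAT and 6.14 times in iWAT. Over all 8 groups, ordered by mean, the only overlapping neighbours were the iWAT WT rosiglitazone and K107R vehicle groups.

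**Figure D2:**
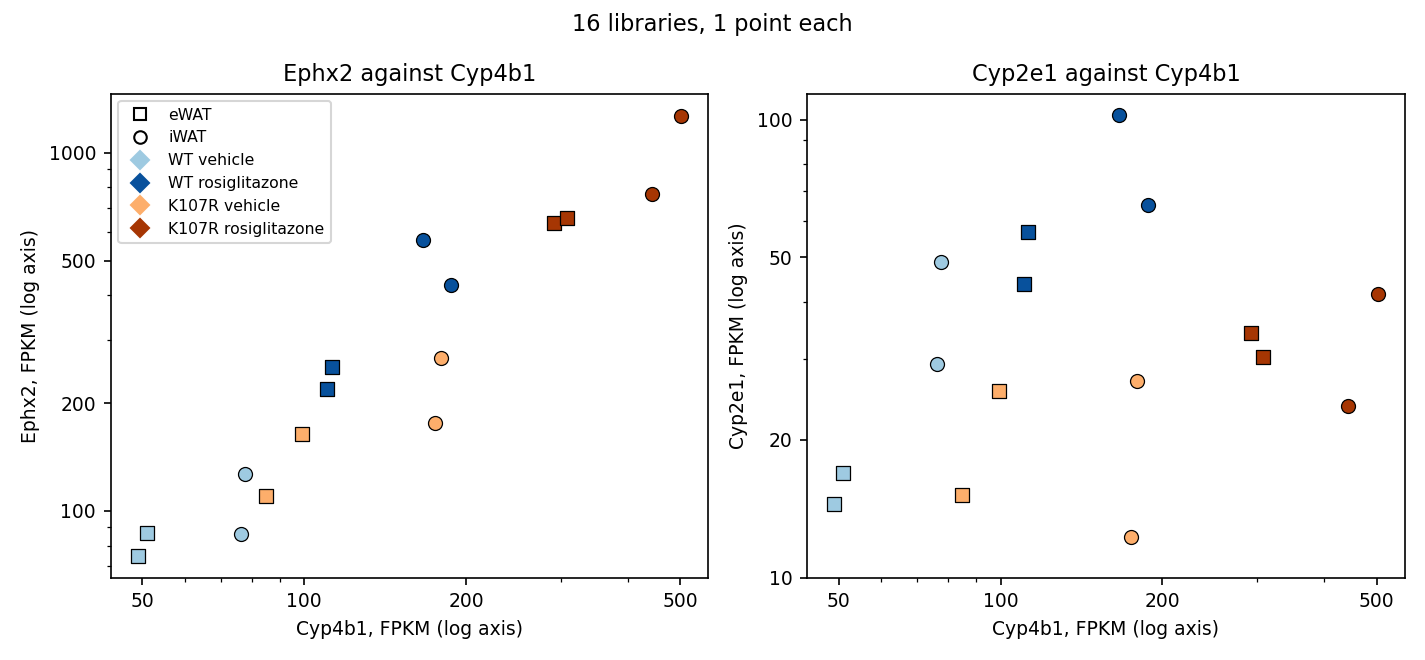
FPKM of Ephx2 (left) and Cyp2e1 (right) against FPKM of Cyp4b1 in the 16 libraries, on log axes. Squares are eWAT and circles iWAT, and colours give genotype and treatment. Ephx2 is higher where Cyp4b1 is higher, while the K107R rosiglitazone libraries, highest for Cyp4b1, hold 23.8 to 41.6 FPKM of Cyp2e1, below all WT rosiglitazone libraries.

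Ephx2 and Cyp4b1 followed each other across the 16 libraries, with Pearson's r of 0.947 on the log2(FPKM + 1) scale. The libraries share their groups and library numbers, so this is a description. Among 8834 genes tested with a mean of at least 5 FPKM, the most alike to Ephx2 were Ehhadh (r = 0.978), a peroxisomal enzyme of fatty acid oxidation, Pdk4 (0.976), a kinase that inhibits pyruvate dehydrogenase, and Agpat3 (0.970), an acyltransferase of phospholipid synthesis. Cyp4b1 ranked 12th in that order. For Cyp4b1 they were Elovl3 (0.957), which lengthens very long fatty acids, Ehhadh (0.955) and Arhgef37 (0.955), and Ephx2 ranked 7th. Ehhadh was at 14.8 and 10.3 FPKM in iWAT of vehicle-treated WT mice and at 146 and 103 in iWAT of K107R mice with rosiglitazone. In eWAT Ehhadh was at 10.3 and 8.59 FPKM in WT with vehicle and at 81.7 and 84.3 in K107R with rosiglitazone.

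Summed fat cell markers differed between the groups in the same direction, by less. Their summed mean in K107R with rosiglitazone was 1.57 times that in WT with vehicle in eWAT and 1.64 times in iWAT, against 8.01 and 9.56 for Ephx2 and 5.99 and 6.14 for Cyp4b1. In iWAT the sums were 9149 and 8840 FPKM in WT with vehicle, 10811 and 9627 in K107R with vehicle, 10908 and 12322 in WT with rosiglitazone, and 14476 and 14996 in K107R with rosiglitazone. Progenitor and fibroblast markers in K107R iWAT with rosiglitazone summed to 0.704 of the WT vehicle mean. Brown and beige fat cell markers (5 of 6 in the table, Elovl3 among them) summed to 4.01 times the WT vehicle mean in K107R eWAT with rosiglitazone and to 1.45 times in iWAT. In iWAT their mean sum was 162 FPKM in WT with vehicle and 313 with rosiglitazone. In K107R iWAT it was 119 with vehicle and 235 with rosiglitazone. The iWAT sum was thus higher with the drug and lower in K107R, the signs that Cyp2e1 shows there. Its member Elovl3 was also higher with the drug, but higher in K107R. With vehicle Elovl3 was at 1.74 and 1.04 FPKM in WT iWAT and at 3.55 and 2.44 in K107R iWAT. With rosiglitazone it was at 11.2 and 8.74 in WT and at 65.3 and 42.8 in K107R. The genotype sign of the sum therefore does not hold for each marker. The part of such shifts in the levels of the genes was not tested, and fewer cells of a type and less RNA per cell cannot be told apart in bulk tissue.

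Cyp2e1 (chromosome 7, 140763739 to 140774987, plus strand) had another pattern, with its highest libraries in WT with rosiglitazone in each depot. In iWAT it was at 48.9 and 29.3 FPKM in WT with vehicle and at 102 and 65.0 in WT with rosiglitazone. K107R iWAT was at 26.9 and 12.3 FPKM with vehicle and at 41.6 and 23.8 with rosiglitazone. WT and K107R libraries were apart within each treatment, while in K107R the vehicle and rosiglitazone libraries overlapped. Number 2 was the lower library in all 8 groups, at between 0.456 and 0.888 of number 1.

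The mean of Cyp2e1 in K107R iWAT was 0.501 of WT with vehicle and 0.391 of WT with rosiglitazone. The genotype differences of -1.02 ± 0.43 and -1.35 ± 0.43 were not called (adjusted p = 0.9125 and 0.171), and with the library number as a block they were (adjusted p = 0.0353 and 0.0018). Rescaling each library also led to calls, at -0.95 (adjusted p = 0.0217) and -1.27 (adjusted p = 0.0008). Under the drug the mean was 2.14-fold higher in WT and 1.67-fold higher in K107R, with log2 changes of 1.09 ± 0.43 (adjusted p = 0.444) and 0.76 ± 0.43 (adjusted p = 0.624). The block gave adjusted p = 0.0113 and 0.0367 for these, and 0.0018 for their average of 0.92. On rescaling they were called as well, at 1.06 (adjusted p = 0.0082) in WT and 0.74 (adjusted p = 0.0248) in K107R. Their average was then 0.90 (adjusted p = 0.0010). Cyp2e1 thus had the opposite sign to Ephx2 and Cyp4b1 between genotypes in iWAT and the same sign under the drug, within each library number.

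In eWAT Cyp2e1 was at 16.9 and 14.5 FPKM in WT with vehicle and at 56.8 and 43.9 in WT with rosiglitazone, a 3.20-fold step in means. K107R eWAT was at 25.6 and 15.1 FPKM with vehicle and at 34.2 and 30.4 with rosiglitazone, a 1.59-fold step. With vehicle the genotypes overlapped, and with rosiglitazone both K107R libraries were below both WT libraries, at 0.642 of the WT mean. The genotype difference in vehicle-treated mice was thus not of one sign between depots, 1.30-fold higher in K107R eWAT means and 0.501 in iWAT, and the eWAT groups overlap. Cyp2e1 is also a major enzyme of hepatocytes. Of 6 hepatocyte markers, Alb and Apoa1 are in the table, and their sum was between 0.341 and 8.48 FPKM over all libraries. In iWAT that sum was 8.48 and 6.90 in WT with vehicle, 4.80 and 3.34 in K107R with vehicle, 5.76 and 4.94 in WT with rosiglitazone, and 5.38 and 3.86 in K107R with rosiglitazone, and in eWAT of WT mice it was 1.45 and 1.52 with vehicle and 0.716 and 0.641 with rosiglitazone. With vehicle in iWAT both Cyp2e1 and this sum were higher in WT than in K107R. With rosiglitazone in iWAT the same held within each library number. Under the drug in WT mice Cyp2e1 was higher and this sum lower in each depot. In K107R iWAT both were higher with the drug within each library number. In K107R eWAT Cyp2e1 was higher with the drug, while this sum was 6.96 and 4.94 with vehicle and 0.341 and 0.556 with rosiglitazone. The part of hepatocyte RNA in the Cyp2e1 levels was not tested. From lowest to highest mean, Cyp2e1 was at 15.7 FPKM in eWAT WT vehicle, 19.6 in iWAT K107R vehicle, 20.4 in eWAT K107R vehicle, 32.3 in eWAT K107R rosiglitazone, 32.7 in iWAT K107R rosiglitazone, 39.1 in iWAT WT vehicle, 50.3 in eWAT WT rosiglitazone and 83.7 in iWAT WT rosiglitazone. The only neighbours that were apart were eWAT K107R vehicle and eWAT K107R rosiglitazone, and the top 2 groups.

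The genes most like Cyp2e1 over the libraries were Echs1 (r = 0.861) and Hibch (0.858), mitochondrial enzymes of fatty acid and valine breakdown, and Mtif3 (0.858), a mitochondrial translation factor. Echs1 was at 189 and 140.03 FPKM in iWAT of WT mice with rosiglitazone and at 154 and 97.6 in iWAT of K107R mice with rosiglitazone. Pearson's r of Cyp2e1 with Ephx2 was 0.493 and with Cyp4b1 0.265.

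Cyp1b1 differed by depot. In eWAT it was at 29.6 and 21.4 FPKM in WT with vehicle, 24.9 and 12.6 in K107R with vehicle, 33.7 and 23.9 in WT with rosiglitazone, and 21.9 and 19.3 in K107R with rosiglitazone. In iWAT it was at 10.98 and 5.26 FPKM in WT with vehicle, 13.4 and 5.84 in K107R with vehicle, 11.2 and 6.30 in WT with rosiglitazone, and 9.21 and 4.49 in K107R with rosiglitazone. All eWAT libraries were above all iWAT libraries except eWAT K107R vehicle library 2 at 12.6, below iWAT K107R vehicle library 1 at 13.4. Ordered by mean, the 4 iWAT groups (6.85 to 9.61 FPKM) came below the 4 eWAT groups (18.7 to 28.8), and every pair of neighbours overlapped. The number 2 library was the lower in all 8 groups, at between 0.436 and 0.879 of number 1.

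Across depots Cyp1b1 was higher in eWAT by 1.42 ± 0.25 on the log2 scale (adjusted p = 0.0013), by 1.22 within number 1 and 1.62 within number 2. No drug or genotype difference of Cyp1b1 in iWAT was called, with log2 changes between -0.41 and 0.20, each with an SE of 0.50 (adjusted p = 1 for each), and none was called with the block. The libraries overlapped in each of these iWAT comparisons. Macrophage markers, also higher in eWAT, summed to between 3464 and 4689 FPKM there and to between 896 and 1367 in iWAT. Progenitor and fibroblast markers summed to between 1750 and 2698 FPKM in eWAT and between 918 and 1893 in iWAT, and mesothelium markers to between 49.7 and 79.9 in eWAT and between 1.37 and 4.61 in iWAT. Other marker sums reached higher in iWAT. Endothelium markers summed to between 117 and 218 FPKM in eWAT and between 158 and 422 in iWAT. For mural and smooth muscle cells the sums were 58.6 to 133 in eWAT and 55.7 to 268 in iWAT. B and T cell markers summed to 3.68 to 18.6 in eWAT and 15.4 to 202 in iWAT. Mast cell markers were higher in eWAT, at 120 to 431 against 59.9 to 91.9. The part of any of these cell types in the depot difference was not tested. The genes most like Cyp1b1 were Birc5 (r = 0.989), an inhibitor of apoptosis expressed in dividing cells, Cybb (0.989), the oxidase subunit of phagocytes, and Rgs18 (0.988), a regulator of G protein signalling in blood cells. All were, like Cyp1b1, lower in number 2 than in number 1 in every group and higher in eWAT means. As the libraries share depots and library numbers, these r values are a description.

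**Figure D3:**
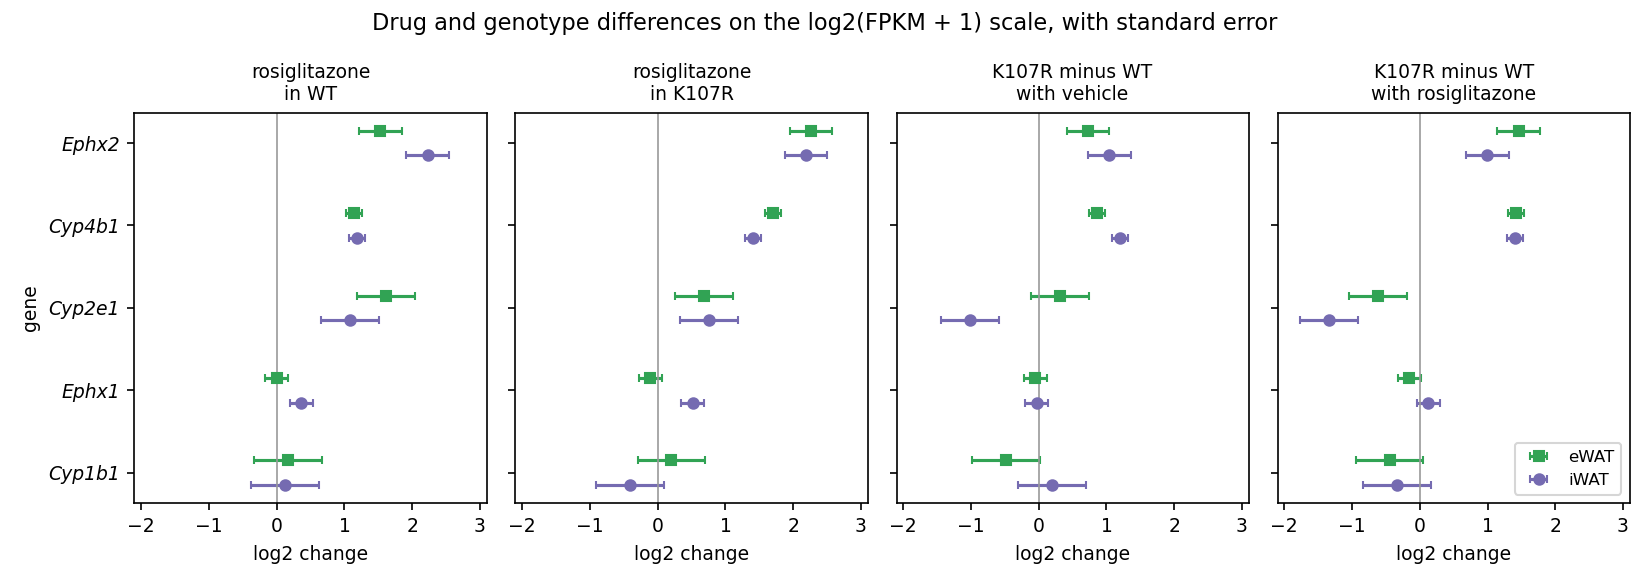
Log2 change on the log2(FPKM + 1) scale (horizontal axis) with SE for each gene, for rosiglitazone in WT and K107R and for K107R minus WT with vehicle and with rosiglitazone. Green squares are eWAT (description) and purple circles iWAT (tested). Ephx2 and Cyp4b1 lie to the right of 0 in all 4 panels, and Cyp2e1 in iWAT lies to the left in both genotype panels.

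Counted over the 5 genes, 2 were called higher with rosiglitazone in WT iWAT (Ephx2 and Cyp4b1), where 0.900% of all genes tested were called higher. In K107R iWAT 2 were called higher, against 1.92% of all genes, and averaged over genotypes 2, against 3.11%. With the library number as a block these counts were 3, 4 and 4, against 4.02%, 6.61% and 9.30% of all genes. In K107R against WT iWAT, 1 gene (Cyp4b1) was called higher with vehicle, against 0.410% of all genes, and 1 with rosiglitazone, against 0.995%. With the block 2 were called higher and Cyp2e1 lower in each, against 0.988% higher and 1.13% lower with vehicle and 2.92% and 6.45% with rosiglitazone. No gene of the 5 had a called difference between the drug responses of the genotypes in iWAT, with or without the block, where 0.966% and 2.53% of all genes had one. At an unadjusted p under 0.05 there were also 0 of 5, beside 579 of all genes.

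No call is given for the 5 genes within eWAT. Over all genes, the median change for rosiglitazone in K107R eWAT was 0.17 as deposited and 0.00 after rescaling, and for K107R against WT with vehicle in eWAT -0.13 and 0.01.

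Between depots, averaged over the 4 genotype and treatment groups, 2 genes were called higher in eWAT (Cyp1b1 and Ephx1) and 2 lower (Cyp4b1 and Ephx2), against 19.9% higher and 12.5% lower of all genes. The eWAT values assumed to have been used in choosing the genes are part of this comparison. Its p-values, those of Ephx2 and Cyp4b1 above all, are therefore no independent support. Cyp4b1 differed by -0.72 ± 0.06 on the log2 scale (adjusted p = 6.3e-06), with means at 0.519 to 0.650 of iWAT in the 4 matched comparisons. Ephx2 differed by -0.68 ± 0.16 (adjusted p = 0.0068), with means at 0.473 to 0.759 of iWAT. Ephx1 was 0.33 ± 0.08 higher in eWAT (adjusted p = 0.0121), with eWAT means 1.51 times iWAT in WT with vehicle, 1.49 in K107R with vehicle, 1.16 in WT with rosiglitazone and 0.959 in K107R with rosiglitazone. The Ephx1 call was lost on rescaling (0.19, adjusted p = 0.532), where the all-gene median went from 0.10 to -0.01, and without both eWAT K107R vehicle libraries (0.25, adjusted p = 0.0991). Cyp2e1 differed by -0.45 ± 0.21 (adjusted p = 0.152), which was called with the block (adjusted p = 0.0040) and on rescaling (-0.58, adjusted p = 0.0002).

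**Figure D4:**
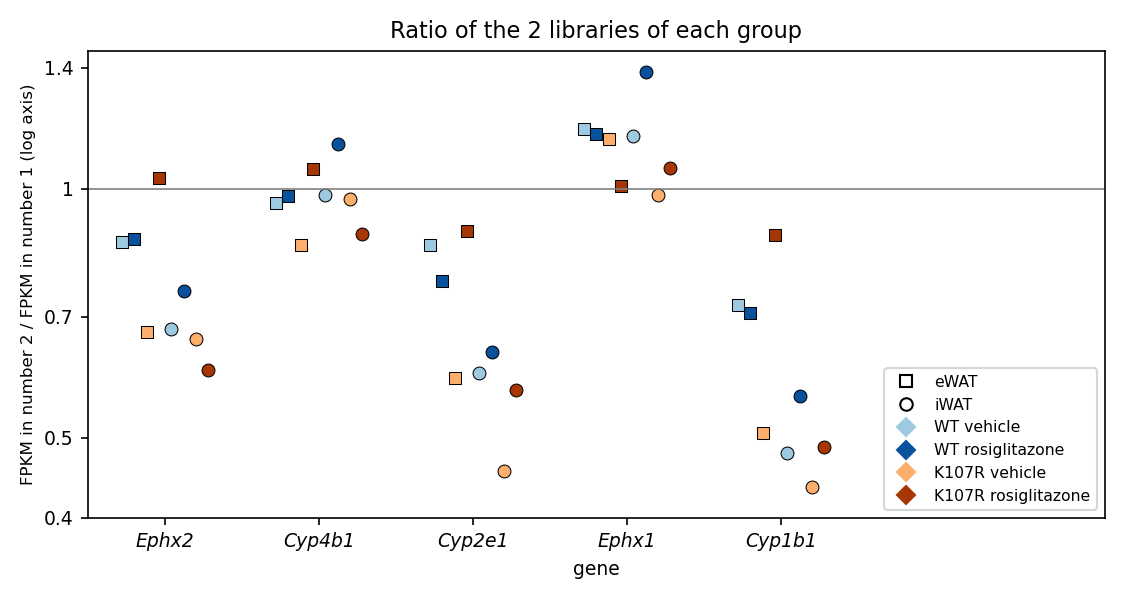
FPKM in library number 2 divided by FPKM in library number 1 of the same group (vertical log axis) for each gene, with squares for eWAT and circles for iWAT. Ratios of Cyp2e1 and Cyp1b1 lie below 1 in all 8 groups and those of Cyp4b1 close to 1, between 0.854 and 1.13.

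Other genes of these pathways were taken from 8 lists of 118 genes, of which 69 were tested. Of the other epoxide hydrolases, Lta4h, which makes leukotriene B from leukotriene A, was at 20.5 to 42.8 FPKM and Ephx3 at 0.396 to 1.87, and neither was called in any comparison of the reported fit. With the library number as a block, Ephx3 was called lower with rosiglitazone in WT iWAT (-0.50 ± 0.16, adjusted p = 0.0291, against 0.247 without the block). With the block it was also called by depot (-0.20, adjusted p = 0.0150), as was Lta4h (0.31, adjusted p = 0.0066). The block also called 1 of the 2 genes lower with rosiglitazone averaged over genotypes in iWAT. In eWAT it did so in WT and averaged over genotypes. The 9 electron donors listed ran from Cyb5r2, at 0.386 to 2.01 FPKM, to Cyb5a, at 419 to 838, with Por at 122 to 205. In iWAT 0 of the 69 genes were called with rosiglitazone in WT, where 0.900% of all genes were called higher and 0.775% lower. In K107R 2 were called higher, Cyp4f17 (1.33 ± 0.31, adjusted p = 0.0433), a fatty acid hydroxylase family member, and Ptges2 (0.57 ± 0.14, adjusted p = 0.0452), a prostaglandin E synthase, and 1 lower, the lipoxygenase Alox15 (-0.90 ± 0.14, adjusted p = 0.0050). In K107R 1.92% of all genes were called higher and 2.28% lower. The median change of the 69 was 0.01 in WT and 0.04 in K107R, beside 0.03 and 0.03 for all genes. The block gave 2 higher and 2 lower in WT, and 3 higher and 6 lower in K107R. Of all genes it gave 4.02% higher and 2.96% lower in WT, and 6.61% and 5.82% in K107R. Without iWAT K107R rosiglitazone library 2 none was called in K107R (Alox15 at adjusted p = 0.0540), and without library 1 of that group 1 was. Ptges2 lost its call without any one of the 4 libraries compared (adjusted p = 0.140 to 0.274) and Cyp4f17 without any but iWAT K107R vehicle library 1 (adjusted p = 0.0683 to 0.315). The number called was 0 with library weights and with iWAT libraries alone, 5 with a pseudocount of 0.1 and 6 on rescaling, where Ptges2 was not among them (adjusted p = 0.566).

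Between genotypes in iWAT, 1 of the 69 was called higher in K107R with vehicle, Alox15 (0.82 ± 0.14, adjusted p = 0.0302), and 1 lower, the glutathione transferase Gsta3 (-1.37 ± 0.15, adjusted p = 0.0023). Alox15 lost its call without any one of the 4 libraries compared (adjusted p = 0.0633 to 0.302), which left 1. With rosiglitazone 1 was called higher, Cyp46a1 (0.50 ± 0.11, adjusted p = 0.0272), which hydroxylates cholesterol. Called lower were 4, Gsta3 (-1.58 ± 0.15, adjusted p = 0.0002), Cyp4f18 (-1.17 ± 0.15, adjusted p = 0.0014), Cyp2f2 (-0.58 ± 0.14, adjusted p = 0.0478) and Alox12 (-0.57 ± 0.11, adjusted p = 0.0129). Leaving out any one of the 4 libraries left 2 or 3 of the 5, with Gsta3 and Cyp4f18 among them each time. Cyp4f18 missed the threshold on rescaling (adjusted p = 0.0678) and with iWAT libraries alone (adjusted p = 0.0724), a fit that called 1 of the 5. With vehicle that fit called none, with Gsta3 at adjusted p = 0.195, and library weights called 1 with vehicle and 3 with rosiglitazone. Of all genes, 0.410% were called higher and 0.168% lower with vehicle, and 0.995% and 3.14% with rosiglitazone. Mean FPKM of Gsta3 in iWAT was 16.7 in WT and 5.84 in K107R with vehicle, and 12.4 and 3.49 with rosiglitazone. Over all libraries Cyp2f2 was at 0.0315 to 1.29 FPKM, Alox12 at 0.408 to 1.73 and Cyp46a1 at 0.408 to 1.63, all low. Cyp2f2 missed the threshold with rosiglitazone when the pseudocount was 0.1 (adjusted p = 0.0682). The block gave 1 higher and 3 lower with vehicle, and 5 and 5 with rosiglitazone. Beside these, 0.988% and 1.13% of all genes were called with vehicle, and 2.92% and 6.45% with rosiglitazone. Medians of the 69 were -0.02 and 0.02, beside -0.06 and -0.01 for all genes. Gsta and Cyp4f genes have near-identical copies that can share reads, so these values are uncertain. The part of the B and T cell and skeletal muscle differences between these iWAT groups in the calls was not tested.

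By depot 25 of the 69 were called higher and 7 lower in eWAT, against 19.9% and 12.5% of all genes, and 38 and 17 with the block, against 34.8% and 21.0%, with a median of 0.23 beside 0.10 for all genes. Among those higher were the prostaglandin and thromboxane synthases Hpgds (2.75 ± 0.35, adjusted p = 0.0001) and Tbxas1 (2.33 ± 0.09) and the cytochrome Cyp2s1 (1.74 ± 0.07). Among those lower were the retinoic acid hydroxylase Cyp26b1 (-0.86 ± 0.15, adjusted p = 0.0014) and Cyp2f2 (-0.71 ± 0.07). Both were low, Cyp26b1 at 0.400 to 3.12 FPKM and Cyp2f2 at 0.0315 to 1.29 over all libraries. In eWAT with vehicle, 4 were called higher in K107R (Ptgds, Cyp17a1, Aldh3a1 and Arnt2, against 2.89% of all genes), in the libraries with epididymal RNA, and under the drug in K107R eWAT 7 were called lower (3.61% of all genes), these 4 among them.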

How the data were processed

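RNA was sequenced from 16 libraries of mouse white fat, 8 groups of 2, read as single 75-nt ends, per the labels' protocols, which name a stranded mRNA kit and 4 ug of input RNA. The values are FPKM, deposited by the authors as a single table. The tools were TopHat2 2.0.12 and Cufflinks 2.2.1 with CASAVA 1.8.2, on mm10, per the submitters' processing notes, which give no order of steps. The annotation, strand setting and scaling between libraries are not given in the sources used here, so overlapping genes and close gene copies can share reads. Low values showed no steps of whole reads, so counts could not be recovered and no counting interval is given. No 2 libraries held the same values.

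The 13669 of 14023 genes that reached 1 FPKM in 2 or more libraries were fitted on log2(FPKM + 1), which makes changes of low genes smaller, with limma 3.58.1 in R 4.3.3. The fit had 1 mean per group, a mean-variance trend and two-sided p-values adjusted by Benjamini-Hochberg within each comparison. It was run on simulated data first, where it missed the first pass mark for the sign of planted changes. That mark was then replaced, so the run is no independent check of the fit. Group values are mean ± SD over n = 2. The 5 genes and the gene lists were chosen with earlier results of these data known. Other genes are named if called in a comparison that the text describes (up to 4 per list and direction) or if among the 3 most alike to one of the 5. Coordinates are from GENCODE M21 (GRCm38).

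Libraries with the same number deviated together from their group means in each of 28 pairs of groups (r = 0.121 to 0.791). The library numbers of the labels therefore pair the libraries, but their meaning is not stated. Alternatives were the library number as a block, rescaling by median ratio, each depot's libraries alone, library weights, no filter, a 0.1 pseudocount, and leaving out each library. A fit without both eWAT K107R vehicle libraries was chosen after seeing the data.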

Additional observations from a re-analysis of the deposited data

Results flagged for a closer look

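The rosiglitazone response of Ephx1 in K107R mice had opposite signs in the depots. In eWAT both rosiglitazone libraries (104 and 105 FPKM) were below both vehicle libraries (106 and 121), the nearest at 105.0 against 105.5. The eWAT log2 change of -0.11 ± 0.17 was smaller than its SE, so its sign is uncertain. This eWAT change was -0.33 after rescaling each library and ran from -0.21 to -0.012 when 1 library was left out. In iWAT both rosiglitazone libraries (106 and 112) were above both vehicle libraries (76.5 and 75.2), a change of 0.52 ± 0.17. It was 0.49 after rescaling and 0.48 to 0.56 when 1 library was left out. The iWAT change was not called (adjusted p = 0.165) except with the library number as a block (adjusted p = 0.0164). The eWAT change minus the iWAT change was -0.63, and this difference was not tested. The eWAT vehicle libraries of this comparison are those with epididymal RNA, whose part in it was not tested.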

How the results depend on the processing

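Counts of the 5 genes called in iWAT depended on the fit. With iWAT libraries alone, 0 were called for rosiglitazone in WT (2 in the reported fit), 1 in K107R (2) and 0 for K107R against WT with vehicle (1). With the replicate number as a block, 4 were called in K107R (2), 4 averaged over genotypes (2), and 3 for K107R against WT in each treatment (1). The calls that the block added are given beside each gene, and within iWAT and between depots it changed no other call of the 5 genes. Rescaling gave 2 for K107R against WT with vehicle and 3 with rosiglitazone. It also called Cyp2e1 under the drug in WT, in K107R and averaged over genotypes. Leaving out 1 library gave 1 to 2 for rosiglitazone in WT, the 1 without iWAT WT vehicle library 2 or WT rosiglitazone library 1. The difference of responses stayed at 0, and the depot count at 4, when 1 library was left out. The Ephx1 change between genotypes with vehicle was 0.0501 after rescaling, against -0.03. Where the sign turned on leaving out 1 iWAT library, no value was called: Cyp1b1 ranged from -0.34 to 0.59 (drug in WT), -0.94 to 0.13 (drug in K107R), -0.41 to 0.13 (average), -0.34 to 0.73 (genotype, vehicle), -0.78 to 0.11 (genotype, rosiglitazone) and -1.07 to 0.0056 (difference of responses). Ephx1 ranged from -0.13 to 0.0778 (genotype, vehicle), -0.11 to 0.36 (genotype, rosiglitazone) and -0.0787 to 0.39 (difference of responses), where Ephx2 ranged from -0.41 to 0.32 and Cyp2e1 from -0.87 to 0.21. A lone library left in a group was assumed to vary like the other groups. The cause of these changes was not tested. FPKM carry no depth, so what depth limits is not known.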
